A study of Caenorhabditis elegans with 12 samples.

Results

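The beta-carotene oxygenase genes bcmo-1 (Y46G5A.24) and bcmo-2 (F53C3.12) were followed in Caenorhabditis elegans larvae raised on polyunsaturated fatty acids. All probe sets annotated to either gene were taken. That gave 2 genes of 25478 with a probe set of their own, and 1 probe set for each, of 29317 on the array. The pair was chosen by the signal of bcmo-1 itself in these data, which was higher with gamma-linolenic acid (GLA) than in control, and bcmo-2 was taken as its relative by name. The values of bcmo-1 with GLA and in the control are therefore given as a description, without a test.

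Wild-type N2 worms were synchronised by hypochlorite treatment, and about 2000 larvae of the first stage (L1) were placed on each plate and grown to the fourth stage (L4). The nematode growth medium was kept at 20 °C and seeded with Escherichia coli OP50. It held linoleic acid (LNA), GLA or dihomo-gamma-linolenic acid (DGLA), each at 1000 µM, or the ethanol vehicle alone at 1% (v/v), which is the control. No carotenoid or retinoid is named among the additions. Each of the 4 groups had 3 biological replicates and 1 array per replicate, 12 arrays in all. Values are RMA signals on the log2 scale, 1 per probe set, normalised between arrays by the authors.

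Carotenoid oxygenases are iron enzymes that cut the polyene chain of carotenoids. In vertebrates, central cleavage of beta-carotene gives retinal, which is reduced to retinol by short-chain dehydrogenases or oxidised to retinoic acid by aldehyde dehydrogenases. The family also includes the vertebrate retinal isomerase RPE65. The worm genes are named for the vertebrate monooxygenase. LNA, GLA and DGLA are successive acids of the worm's own pathway: GLA has a double bond that LNA lacks, and elongation of GLA by a carbon pair makes DGLA.

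RNA came from whole larvae, so fewer cells of a type and less RNA per cell cannot be told apart. The mean signal of 7 intestinal marker genes lay between 8.93 and 9.15 on all 12 arrays. In limma's moderated test none of 33 measured marker genes of intestine, hypodermis, muscle, pharynx, neurons, germline and sperm passed in any acid against control, and 8 (24.2%), 1 (3.03%) and 0 of them had an unadjusted p under 0.05 with LNA, GLA and DGLA, as did 9.60%, 5.46% and 5.69% of all probe sets. Arrays LNA 2 and LNA 3 stood apart on the first principal component (23.1% of the variance), at 41.95 and 35.68 against -18.02 to 3.64 for the other 10 arrays. The mean of 4 body wall muscle markers ran from 9.86 to 11.26 on the LNA arrays and from 10.88 to 11.26 on the others. That of 4 pharynx markers ran from 7.37 to 8.15 on the LNA arrays and from 7.87 to 8.16 on the others. The 8 markers with an unadjusted p under 0.05 with LNA were 3 of body wall muscle, 3 of pharynx and 2 of intestine. Those of intestine and tnc-2 of pharynx were higher with LNA, and the rest were lower. The part of these shifts in the LNA results was not tested. Comparisons with LNA are also given without these 2 arrays, which leaves LNA with 1 array.

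The probe set of bcmo-1 was higher with GLA and with DGLA than with LNA or vehicle. The 3 control arrays read 3.28, 2.76 and 3.85, and the 3 LNA arrays read 3.94, 3.79 and 3.34. The 3 GLA arrays read 4.88, 5.45 and 4.97, and the 3 DGLA arrays read 4.83, 4.68 and 4.60. Every GLA array lay above every DGLA array, every DGLA array lay above every LNA and control array, and the LNA and control arrays overlapped. Of all probe sets, 5.56% had all GLA arrays above all control arrays, and 5.55% had all DGLA arrays below all GLA arrays. All DGLA arrays lay above all control arrays in 5.30% and above all LNA arrays in 4.33%. The smallest gap between GLA and control arrays was 1.03, whereas that between GLA and DGLA arrays was 0.045, less than the SD within either group.

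**Figure D1:**
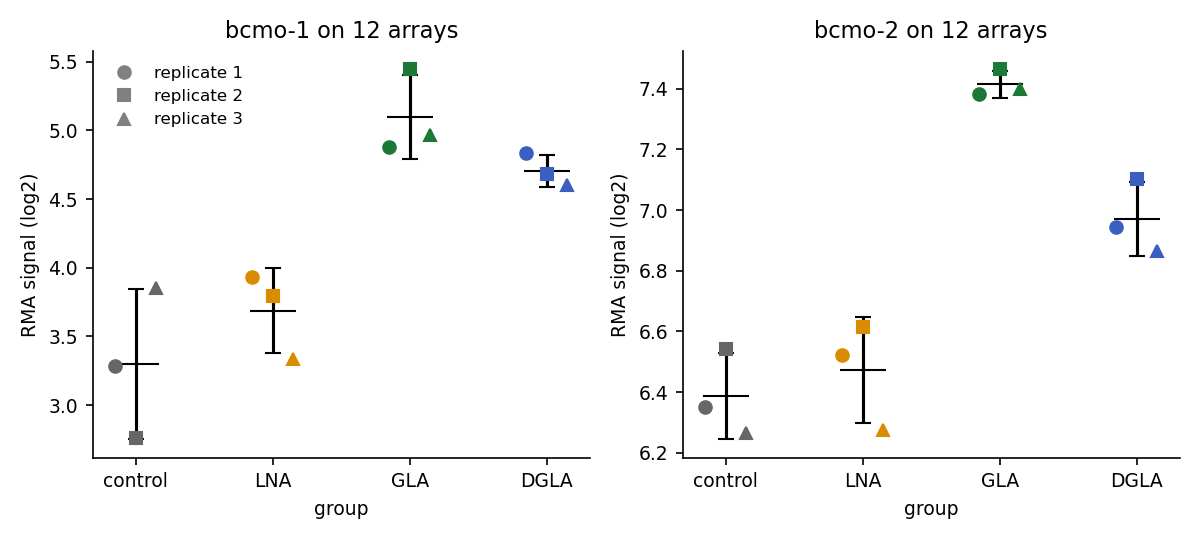
RMA signal (log2, vertical axis) of bcmo-1 (left) and bcmo-2 (right) on each of 12 arrays by group. Points are arrays, with the shape giving the replicate number, horizontal bars are group means and error bars are SD (n = 3); the vertical axes differ in range and do not start at 0. In both genes the 3 GLA arrays are highest, the 3 DGLA arrays come next and the LNA and control arrays overlap.

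Group means of bcmo-1 were 3.30 ± 0.548 in control, 3.69 ± 0.312 with LNA, 5.10 ± 0.304 with GLA and 4.71 ± 0.117 with DGLA (log2 signal, mean ± SD, n = 3). The control arrays were the most widely spread of the groups. Control 2 (2.76) lay below the lower quartile of the signals on its own array (2.95), and no detection call was used here, so bcmo-1 is dim in that array; the other control arrays and the LNA arrays lay between the lower quartile and the median of their signals (4.48 to 4.56), and folds against control or LNA carry that limit. The SE of its differences was 0.251, beside a median of 0.136 over all probe sets. On these values GLA was 3.48-fold above control (1.80 on the log2 scale, SE 0.251) and DGLA was 2.66-fold above control (1.41, SE 0.251). LNA was 1.31-fold above control (0.39, SE 0.251), with overlapping arrays, and 1.56-fold above it without LNA 2 and LNA 3. Leaving out any 1 array of the comparison put the GLA value between 2.89-fold and 4.22-fold.

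The probe set of bcmo-2 gave the same order of groups with less spread. Control arrays read 6.35, 6.54 and 6.26, and LNA arrays read 6.52, 6.62 and 6.28. GLA arrays read 7.38, 7.46 and 7.40, and DGLA arrays read 6.94, 7.10 and 6.86. The GLA arrays stood above all others, the DGLA arrays stood above every LNA and control array, and the LNA and control arrays overlapped. The means were 6.39 ± 0.142 in control, 6.47 ± 0.175 with LNA, 7.41 ± 0.0441 with GLA and 6.97 ± 0.121 with DGLA (log2 signal, mean ± SD, n = 3).

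The comparison of each acid with control asked whether the second oxygenase responds to the acids. The members were chosen with earlier results of these data known, so its p-values and ranks may not be independent of that choice. With GLA, bcmo-2 rose 2.04-fold (1.03 on the log2 scale, SE 0.113, 95% interval 0.78 to 1.27, limma adjusted p = 0.00262). It ranked 14 of 29317 probe sets by p and 28 by fold, in a comparison where 0.147% of probe sets passed as higher. All 3 GLA arrays lay above all 3 control arrays, as they did for 5.56% of probe sets. Without any 1 array of the comparison the rise lay between 1.96-fold and 2.15-fold, and its adjusted p was at most 0.0257 under every alternative run. With DGLA, bcmo-2 was 1.50-fold above control (0.58, SE 0.113, 95% interval 0.34 to 0.83), and its adjusted p of 0.0506 missed the threshold of 0.05, where 0.300% of probe sets passed as higher. All 3 DGLA arrays lay above all 3 control arrays, as they did for 5.30% of probe sets. Under the alternatives that adjusted p ran from 0.0224 to 0.226, on both sides of the threshold.

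With LNA, bcmo-2 did not pass (0.09 on the log2 scale, SE 0.113, adjusted p = 0.827). The 95% interval of the difference ran from 0.895-fold to 1.26-fold. Without LNA 2 and LNA 3 the difference was 0.14 (adjusted p = 0.918). In that comparison 0.0478% of probe sets passed as higher. The 3 comparisons share the same control arrays, so they are not independent of each other.

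**Figure D2:**
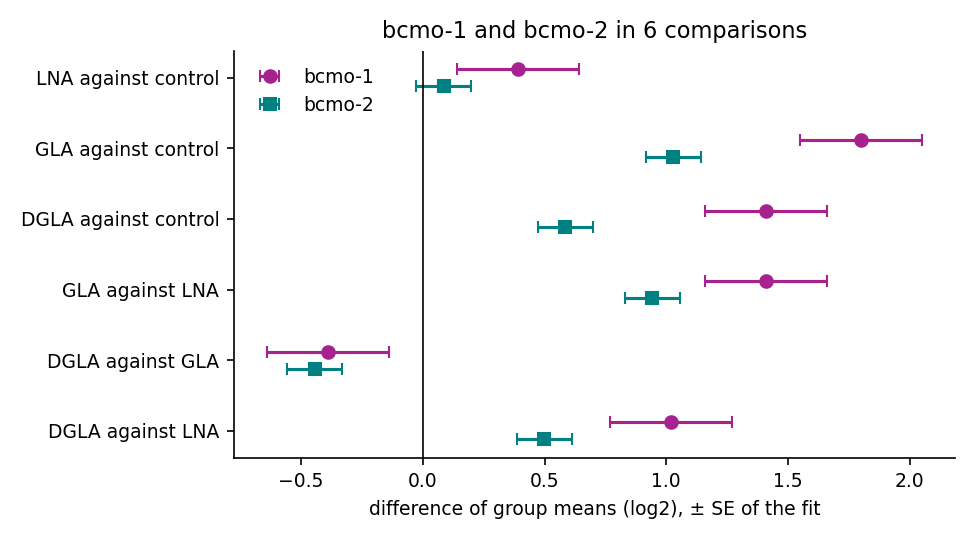
Difference of group means (log2, horizontal axis) for bcmo-1 (circles) and bcmo-2 (squares) in the 6 comparisons between groups (vertical axis), first group minus second. Bars are ± 1 SE of the fit on 12 arrays; GLA against control holds the largest difference for both genes (1.80 and 1.03), and only DGLA against GLA is below 0 in either gene (-0.39 and -0.44).

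The acids were also compared with each other at their common dose, in 3 pairs, with p-values adjusted over all probe sets of a comparison. For the added double bond, bcmo-2 was 1.92-fold higher with GLA than with LNA (0.94 on the log2 scale, SE 0.113, limma adjusted p = 0.0149). Only 0.0341% of probe sets passed as higher there, and bcmo-2 ranked 6 of all by p. The call ended without LNA 3 (adjusted p = 0.0763), GLA 1 (0.0733), GLA 2 (0.121) or GLA 3 (0.0796), without LNA 2 and LNA 3 together (0.131), and on the 6 arrays alone (0.192). The size of the difference was 1.80-fold to 2.02-fold without any 1 array. For bcmo-1 the same pair differed 2.66-fold (5.10 against 3.69), or 2.24-fold without LNA 2 and LNA 3. In both genes all GLA arrays lay above all LNA arrays, as they did for 4.78% of probe sets.

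For the added carbon pair, bcmo-2 was lower with DGLA than with GLA by 0.44 on the log2 scale in size (-0.44, SE 0.113), and this did not pass (adjusted p = 0.545). The 95% interval of that difference ran from -0.69 to -0.20 before adjustment over probe sets. All 3 DGLA arrays lay below all 3 GLA arrays, as was so for 5.55% of probe sets, and 0.0409% passed as lower. In bcmo-1 the same difference was -0.39 (SE 0.251), again with DGLA lower on all arrays.

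DGLA against LNA is the 1 comparison of bcmo-1 whose means rest on neither the GLA nor the control arrays, and it was tested, although the spread in the 12-array fit drew on those arrays too. The level of bcmo-1 was 4.71 with DGLA and 3.69 with LNA, a ratio of 2.03-fold (1.02 on the log2 scale, SE 0.251, 95% interval 0.47 to 1.57). It did not pass in limma's test (adjusted p = 0.184), where 0.119% of probe sets passed as higher. On the 6 DGLA and LNA arrays alone, which leave the GLA and control arrays out altogether, the SE was 0.168 and the adjusted p = 0.177. For bcmo-2 the ratio was 1.41-fold (0.50, SE 0.113, 95% interval 0.25 to 0.75), and this did not pass either (adjusted p = 0.136). In both genes the 3 DGLA arrays lay above the 3 LNA arrays, as for 4.33% of probe sets. Without LNA 1 both passed (limma adjusted p = 0.0471 for bcmo-1 and 0.0439 for bcmo-2). The differences were then 1.14 (SE 0.281) for bcmo-1 and 0.52 (SE 0.127) for bcmo-2, each with a larger SE than on all arrays. The adjustment runs over all probe sets, and why the adjusted p fell was not tested. That fit left LNA with the 2 arrays that stood apart. Without those 2 the ratios were 1.71-fold for bcmo-1 (adjusted p = 0.637) and 1.36-fold for bcmo-2 (adjusted p = 0.41).

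Both genes lie on chromosome II in the RefSeq gene table (assembly WBcel235), and they are not neighbours there. Coordinates are left out because the build behind the array's annotation is not stated. Among the 2 nearest protein-coding genes on each side of each oxygenase, 7 were measured, and Y46G5A.38 had no probe set of its own. None of the 7 passed with any acid (limma adjusted p from 0.546 to 1), and 0 had an unadjusted p under 0.05. Beside bcmo-1, the ligand-gated ion channel gene lgc-35 differed from control by -0.07 with GLA (SE 0.127), Y46G5A.23 by -0.04 (SE 0.111) and pes-10 by 0.18 (SE 0.15).

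Beside bcmo-2 lie the F-box gene fbxb-103, whose annotated span overlaps that of bcmo-2, and F53C3.11, F53C3.1 and the phospholipid phosphatase gene plpp-1.1. With GLA fbxb-103 differed from control by 0.18 (SE 0.209), F53C3.11 by -0.03 (SE 0.106), F53C3.1 by -0.04 (SE 0.169) and plpp-1.1 by -0.04 (SE 0.0858). The signals of fbxb-103 (2.29 to 2.47 as group means) and pes-10 (2.40 to 2.59) were lower than the lower quartile on each array (2.90 to 2.99), so little can be read of a change in either.

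**Figure D3:**
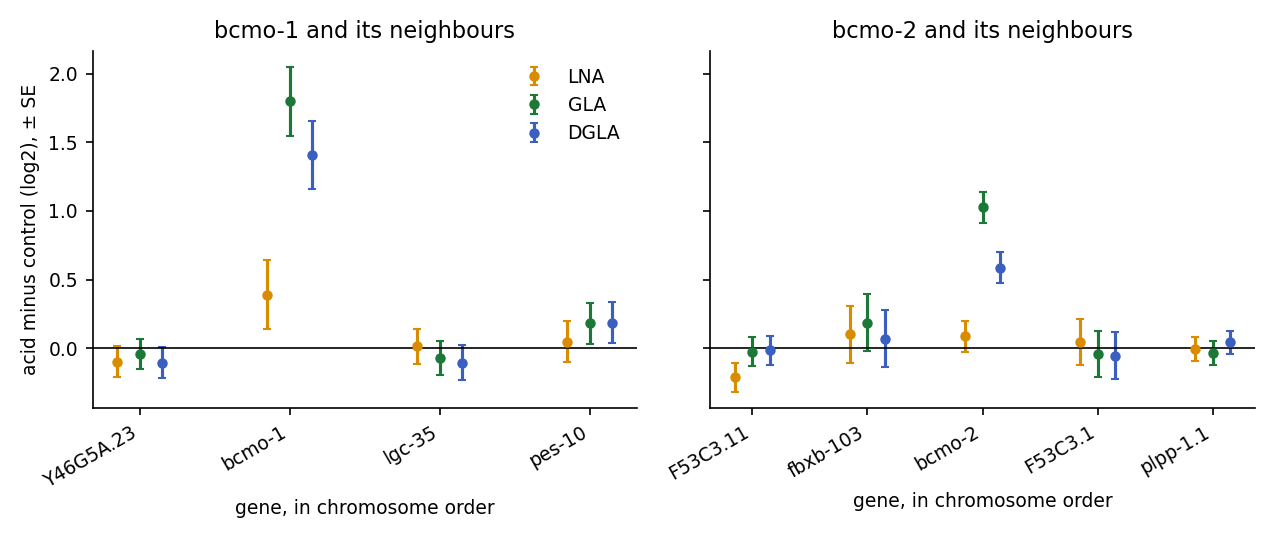
Acid minus control (log2, vertical axis) for bcmo-1 (left) and bcmo-2 (right) among their measured neighbours in chromosome order, for LNA, GLA and DGLA. Points are differences of group means (n = 3 each) and bars ± 1 SE of the fit; the neighbours lie between -0.21 and 0.18, whereas bcmo-1 reaches 1.80 and bcmo-2 1.03 with GLA.

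Genes around carotenoid cleavage were taken from a list of 44 names, of which 42 were measured. It covered scavenger receptors related to CD36 (scav), the oxygenases, short-chain dehydrogenases, aldehyde dehydrogenases (alh), secreted fatty acid and retinol binding proteins (far) and intracellular lipid binding proteins (lbp). Besides the oxygenases, 2 of 40 rose and none fell in each acid against control, with 11 (27.5%), 8 (20%) and 6 (15%) at an unadjusted p under 0.05 with LNA, GLA and DGLA. That last share was 9.60%, 5.46% and 5.69% over all probe sets, and 24.2%, 3.03% and 0% among the 33 tissue marker genes. The list genes at that level went both ways, with alh-7 and alh-11 lower with LNA, far-8 with GLA, and alh-9 and far-7 with DGLA. Over all probe sets 0.0478%, 0.147% and 0.300% passed as higher and 0.0102%, 0.0819% and 0.198% as lower. The risers were far-3 and dhrs-4 with each acid, both known from earlier results of these data. The median difference of the 40 was 0.121 with LNA, 0.0614 with GLA and 0.0542 with DGLA, beside 0.0224, -0.00234 and -0.00546 over all probe sets.

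The short-chain dehydrogenase gene dhrs-4, whose vertebrate relative reduces retinal, read 5.73, 5.72 and 5.62 in control. It read 6.79, 6.96 and 6.59 with LNA, 7.15, 7.05 and 6.72 with GLA, and 7.65, 7.19 and 7.11 with DGLA. Every acid array lay above every control array. Over all probe sets the share with all 3 arrays above control was 8.06% with LNA, 5.56% with GLA and 5.30% with DGLA. In limma's test dhrs-4 rose 2.12-fold with LNA (adjusted p = 0.0375), 2.43-fold with GLA (adjusted p = 0.00593) and 3.09-fold with DGLA (adjusted p = 0.000402). Its highest mean was with DGLA, whereas that of both oxygenases was with GLA. That contrast rests on means. In DGLA against GLA bcmo-2 did not pass (limma adjusted p = 0.545), and the DGLA and GLA arrays of dhrs-4 overlapped. Its call with LNA was lost on leaving out LNA 2, LNA 3, both of these together or any of the controls, on the 6 arrays alone and with array weights, while far-3 stayed called with LNA in each of these but the 6 arrays alone.

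The fatty acid and retinol binding gene far-3 read 4.05 to 4.35 in control, 6.90 to 8.002 with LNA, 9.13 to 9.40 with GLA and 8.91 to 9.21 with DGLA. It was thus above control on all 9 acid arrays, LNA included. The shares of all probe sets that lay so with LNA, GLA and DGLA were again 8.06%, 5.56% and 5.30%. The gene passed with each acid (limma adjusted p = 0.000324 with LNA, 2.11e-06 with GLA and 2.89e-06 with DGLA). None of the 6 scavenger receptors, the 9 lipid binding genes or the 13 aldehyde dehydrogenases passed with any acid. The other 7 far genes did not pass either. Without LNA 1, which left LNA with the 2 arrays that stood apart, scav-1, lbp-5, lbp-6, alh-7 and alh-10 passed with LNA, and the list's count went from 2 to 7. The fatty aldehyde dehydrogenase gene alh-4 was named only because it passed with GLA and DGLA when the spread was modelled with signal level, and with DGLA after cyclic loess. In the fit used here it differed from control by 0.17 with LNA, 0.38 with GLA and 0.37 with DGLA.

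**Figure D4:**
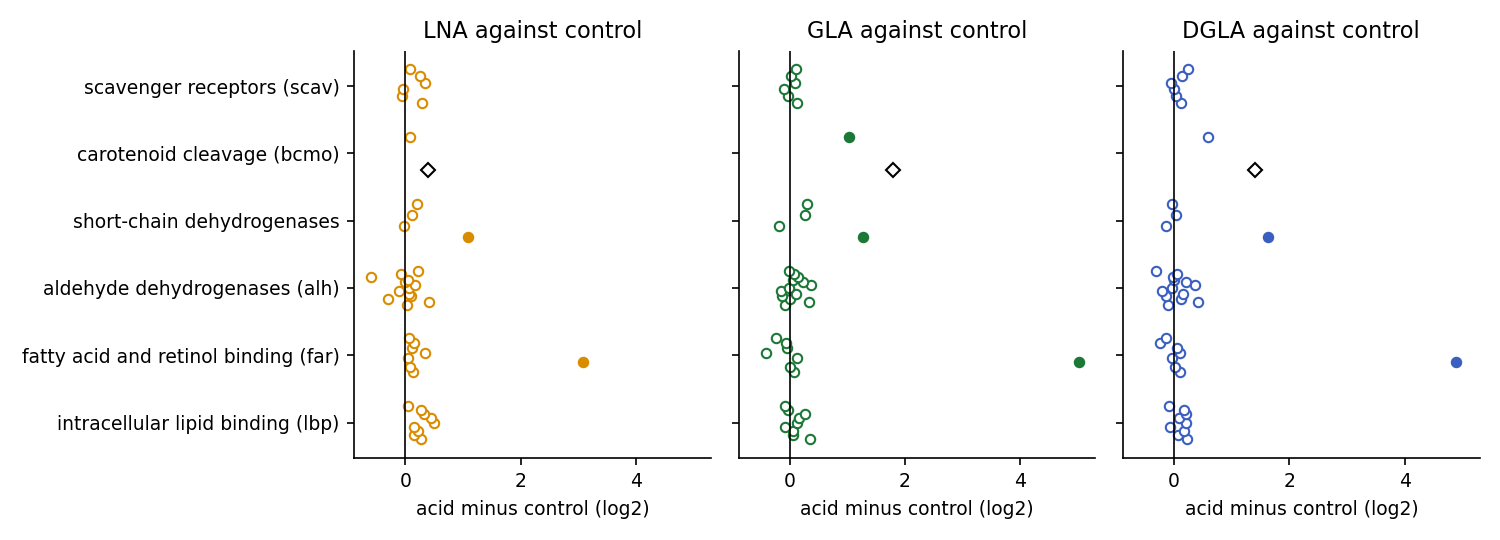
Acid minus control (log2, horizontal axis) for 42 genes of carotenoid and retinoid handling, by class (vertical axis), 1 panel per acid. Circles are genes, filled where limma's adjusted p was under 0.05; bcmo-1 is an open diamond because its values chose it. Apart from the oxygenases, only far-3 (up to 5.02) and dhrs-4 (up to 1.63) are filled in any panel.

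The genes whose signal followed bcmo-1 and bcmo-2 most closely over the 12 arrays were sought among 9406 other genes whose SD over the arrays was at least 0.2. The 5 nearest to bcmo-1, by Pearson's r over n = 12 arrays, were the cytochrome P450 genes cyp-13B1 (0.903) and cyp-13A12 (0.893), bcmo-2 (0.872), the acyl-CoA oxidase gene acox-3 (0.857) and Y53F4B.18 (0.854). The 5 nearest to bcmo-2 were cyp-13A12 (0.944), the UDP-glucuronosyltransferase genes ugt-35 (0.932) and ugt-37 (0.928), cyp-13B1 (0.898) and the glutathione S-transferase gene gst-44 (0.88). The oxygenase bcmo-1 came 6th in that order (0.872). These values describe arrays that fall into 4 groups, and the points share those groups. The deviations of bcmo-1 and bcmo-2 from their group means had an r of -0.0641 over the 12 arrays, beside 0.872 for the signals themselves.

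The nearest genes differed in how they placed DGLA. For cyp-13B1 the means were 4.425 ± 0.272 in control, 4.81 ± 0.16 with LNA, 5.77 ± 0.154 with GLA and 5.36 ± 0.176 with DGLA. That is the order of both oxygenases, and its LNA and control arrays also overlapped. In cyp-13A12 the means were 4.08 ± 0.17 in control, 3.83 ± 0.246 with LNA, 7.86 ± 0.0826 with GLA and 6.53 ± 0.201 with DGLA (log2 signal, mean ± SD, n = 3), the order of both oxygenases apart from LNA and control. In ugt-35 they were 3.06 ± 0.136, 3.21 ± 0.18, 4.28 ± 0.122 and 3.43 ± 0.087, with overlapping DGLA and LNA arrays. In gst-44 they were 3.88 ± 0.059, 3.81 ± 0.0714, 4.68 ± 0.157 and 4.08 ± 0.141. In acox-3, an enzyme of peroxisomal fatty acid breakdown, they were 6.73 ± 0.111, 7.09 ± 0.0231, 7.58 ± 0.0403 and 7.67 ± 0.221, with GLA and DGLA overlapping and LNA above control. Since they were chosen for their likeness, these levels are a description.

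**Figure D5:**
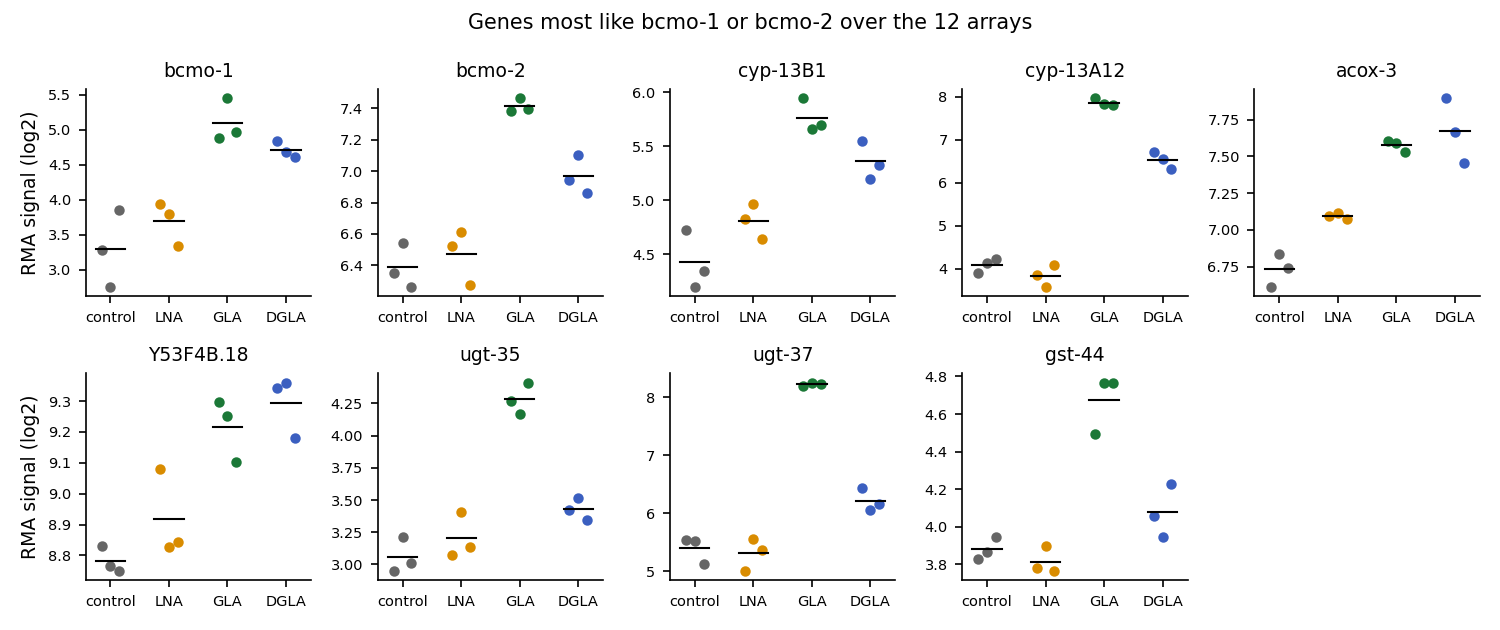
RMA signal (log2, vertical axes with their own ranges) by group for bcmo-1, bcmo-2 and the 7 other genes most like either over 12 arrays. Points are arrays and lines are group means (n = 3); GLA has the highest mean except in acox-3 and Y53F4B.18, where DGLA has it.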

How the data were processed

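Per the labels, RNA was taken from whole larvae with Trizol and hybridised as biotin-labelled cRNA to an Affymetrix array. The deposited values are log2 signals that the authors made with RMA, per the submitters' processing notes, which name 2 Affymetrix programs, Expression Console and Transcriptome Analysis Console. The log2 scale was read from RMA and the range of values (0.651 to 14). For versions, options and the genome build, the sources used here give nothing, and raw intensities were not used.

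All 29317 probe sets were fitted with limma 3.58.1 in R 4.3.3 (lmFit, eBayes, 4 group means, 12 arrays, total degrees of freedom 11.6). The 6 comparisons used two-sided moderated tests, with Benjamini-Hochberg adjustment over all probe sets and a threshold of 0.05. Precision is limited by the number of arrays. The fit was tested on simulated data. The members and lists were chosen with earlier results of these data known. Named genes were the members, called list genes (at most 4 per class), the 5 likest genes over the arrays and the 2 nearest genes on each side. A gene of several probe sets was represented by the one with the highest mean. A planned search for proteins of the same family was not run, as no protein sequence was used here. Alternatives were a replicate block, leaving out arrays, the 6 compared arrays alone, cyclic loess, a filter on dim probe sets, a trended robust prior and array weights. Replicate numbers were not taken as pairs in the main fit. Of 18 same-numbered pairs, 3 had residuals correlated above 0.1. Differently numbered pairs were not compared, so these values cannot show whether samples were paired.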

Additional observations from a re-analysis of the deposited data

How the results depend on the processing

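The 15 results were recomputed under 195 combinations of result and alternative. In 170 of these a tested result kept its direction (or did not pass either way) and its side of the threshold, a described difference moved by less than the pooled SD of its groups, or a count stayed within 1.5 times. The 5 described differences of bcmo-1 moved by at most 0.174 to 0.278, against pooled SDs of the groups compared of 0.231 to 0.446. The rise of bcmo-2 with GLA against control passed under all 13 alternatives. With DGLA against control, bcmo-2 passed with the replicate block (0.58, adjusted p = 0.0273), without LNA 2 and LNA 3 (0.58, adjusted p = 0.0499), after cyclic loess (0.58, adjusted p = 0.0415), without dim probe sets (0.58, adjusted p = 0.0347), with the trended robust prior (0.58, adjusted p = 0.0224) and with array weights (0.55, adjusted p = 0.0483). The replicate block changed no other tested call of bcmo-1 or bcmo-2. It left the counts of the list as they were, but with DGLA the genes counted were then bcmo-2, dhrs-4 and far-3, without bcmo-1. Counting bcmo-1 against control is a description and no test, since its own values chose it. Same-numbered samples are not shown to be pairs. With the filter fewer probe sets were tested, and the SE of bcmo-2 with DGLA was 0.1105, beside 0.1128 in the main fit. The cause of the changes under the alternatives, the filter included, was not tested.

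For bcmo-2 in GLA against LNA, which passed, the call ended on the 6 arrays alone (0.94) and without LNA 2 and LNA 3 (0.89), and leaving out 1 array gave 0.84 to 1.01. In DGLA against LNA, leaving out 1 array gave 0.40 to 0.57 for bcmo-2 and 0.84 to 1.14 for bcmo-1, and both passed without LNA 1. The count of called genes in the carotenoid and retinoid list, oxygenases included, was 2 with LNA, and 1 to 7 without 1 array, 0 on the 6 arrays alone, 1 without LNA 2 and LNA 3 and 1 with array weights. The 7, found without LNA 1, were alh-10, alh-7, dhrs-4, far-3, lbp-5, lbp-6 and scav-1. With DGLA the count of 3 (bcmo-1, whose own values chose it, dhrs-4 and far-3) became 5 after cyclic loess and 5 with the trended robust prior, and 2 on the 6 arrays alone and in 5 of 6 fits without 1 array; dhrs-4 and far-3 were called in all of these. Without LNA 2 and LNA 3 the single LNA array was assumed to vary like the other groups. Raw intensities were not used, so background correction could not be varied, and no slide or scan date was given. Dim signal limits bcmo-1, whose control and LNA arrays all lay below the median of their signals.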
